A study of Mus musculus with 12 samples.

Results

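Colony-stimulating factors and their receptors were followed across 12 RNA libraries of mouse macrophages: the 3 ligand genes Csf1, Csf2 and Csf3 and the 5 receptor genes Csf1r, Csf2ra, Csf2rb, Csf2rb2 and Csf3r. They were taken by symbol from a table of read counts per gene, in which these 8 genes are 8 of the 37542 rows used. Of the 8, 6 had enough reads to be among the 12261 genes tested, and Csf2 and Csf3 did not. The cells were bone-marrow-derived macrophages (BMDMs), primary cells that had been grown from marrow of C57BL/6N mice for 7 days in L929-conditioned medium. The marrow was wild-type (WT) or Alpk1-/- (KO), and the cells received PBS or 100 µM ADP-Hep for 4 h. This gave 4 groups of 3 libraries: WT PBS, WT ADP-Hep, KO PBS and KO ADP-Hep. No label ties the 3 libraries of a group to separate mice or cultures, so every p-value below refers to the spread of these libraries alone, and that spread may be technical. They also do not say whether WT and KO mice were littermates or which part of Alpk1 was deleted.

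CSF1 (M-CSF) binds the receptor tyrosine kinase CSF1R, which macrophages need for survival and growth, and L929 cells secrete CSF1, so all 4 groups were cultured with added CSF1. GM-CSF, encoded by Csf2, binds a receptor made of a specific alpha chain (Csf2ra) and a common beta chain (Csf2rb) that signals through JAK2 and STAT5. Mice carry a near copy of the beta chain gene, Csf2rb2, whose product pairs with the IL-3 receptor alpha chain. G-CSF, encoded by Csf3, binds CSF3R, best known for its role in neutrophil production. ALPK1 is the cytosolic kinase that senses ADP-Hep, a sugar nucleotide of Gram-negative bacteria, and activates NF-kB through TIFA, and NF-kB is a known activator of Csf1, Csf2 and Csf3.

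Of the 8 genes, 5 had a start-site window in the RefSeq table used (250 bases before and 50 after the start, GRCm38.p6): Csf1, Csf2, Csf2ra, Csf2rb2 and Csf3r. Bases upstream of the start are shown for the ligand gene that rose in WT cells with ADP-Hep, for the receptor gene that fell in both genotypes and for a receptor gene that rose in WT cells. Capitals mark an NF-kB consensus match in Csf1 and Csf3r and, in Csf2rb2, the core GAGGAAG of the myeloid factor PU.1 read on the other strand. The stretches are chr3:107760470-107760719 (minus strand) for Csf1, chr4:126024409-126024549 (plus strand) for Csf3r and chr15:78305722-78305971 (minus strand) for Csf2rb2, each written 5′ to 3′ towards the gene.
Csf1: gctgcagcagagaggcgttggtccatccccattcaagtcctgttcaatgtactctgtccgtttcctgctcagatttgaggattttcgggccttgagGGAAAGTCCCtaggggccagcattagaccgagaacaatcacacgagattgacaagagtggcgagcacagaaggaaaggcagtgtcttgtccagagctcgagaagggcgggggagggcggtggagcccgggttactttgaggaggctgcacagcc
Csf3r: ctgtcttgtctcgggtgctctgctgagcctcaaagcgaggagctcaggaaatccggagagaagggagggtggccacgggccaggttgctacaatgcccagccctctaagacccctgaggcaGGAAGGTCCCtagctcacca
Csf2rb2: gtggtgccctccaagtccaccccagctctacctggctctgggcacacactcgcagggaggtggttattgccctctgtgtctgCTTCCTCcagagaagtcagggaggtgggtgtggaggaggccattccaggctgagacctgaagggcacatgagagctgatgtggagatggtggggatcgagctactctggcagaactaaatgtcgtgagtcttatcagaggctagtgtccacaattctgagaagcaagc

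The match in Csf1 begins at base -154 from the start, and the match in Csf3r at base -129 from the RefSeq start, which lies 109 bases inside the start that GENCODE gives. Both strands were searched for each motif. An NF-kB consensus was found in 2 of the 5 windows and in 8.18% of all 27025 RefSeq windows of this length. GAGGAAG was found in 3 of the 5 (Csf2ra, Csf2rb2 and Csf3r) and in 13.5% of all windows. TTNNGNAA, a C/EBP pattern, was found in 3 of the 5 (Csf2, Csf2ra and Csf2rb2) and in 40.7% of all. The AP-1 pattern TGANTCA and the TATA pattern TATAAA were in 0 of the 5, against 7.93% and 14.2% of all windows. For Csf2 the RefSeq start lies 232 bases upstream of the GENCODE start, and the window ends before the latter. The GENCODE start of Csf2 and the bases next to it were therefore not searched for any motif. In Csf2rb2 a match to GAGGAAG and a match to TTNNGNAA overlap after the start. A match says only that these letters lie in the window, and no binding was measured.

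Total counts ran from 16110654 to 31333973 per library, with 71.3 to 85.2% of a library in the rows used. Alpk1 had 25.9 to 32.1 CPM (read counts set to a common library size, with a TMM correction for composition) in WT PBS, 52.3 to 55.3 in WT ADP-Hep, 20.3 to 22.3 in KO PBS and 19.2 to 22.5 in KO ADP-Hep libraries. Its KO libraries were thus below every WT library under the same treatment, and the difference (KO minus WT) was -0.45 ± 0.08 (SE) on the log2 scale under PBS and -1.34 ± 0.07 under ADP-Hep (edgeR quasi-likelihood test, adjusted p = 0.00037 and 1.5e-14). Reads of the gene remained in the KO libraries. The 8 macrophage markers summed to 23186 to 25912 CPM over all libraries. Lymphocyte markers summed to at most 0.564 CPM, with Cd3e, Cd3g and Ncr1 among those at 0 reads. Mast cell and basophil markers reached 0.725 CPM, fibroblast markers 2.58 and dendritic cell markers 2.10. Marker genes of progenitors (Cd34, Kit, Sox4 and Myb) summed to 21.7 to 23.4 CPM in WT PBS, 4.28 to 4.61 in WT ADP-Hep, 17.3 to 19.4 in KO PBS and 14.6 to 16.2 in KO ADP-Hep. In bulk RNA, fewer cells of a type and less RNA per cell cannot be told apart.

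Csf1r was by far the highest of the 8 genes per length of transcript. In CPM per kb of merged exons, its level was 401 ± 5.68 (SD, n = 3) in WT PBS, which ranked 56 of 12261 genes. Csf2rb2 followed at 45.8 ± 1.59, then Csf2ra at 44.4 ± 7.18, Csf2rb at 30.4 ± 1.95, Csf3r at 27.5 ± 3.03 and Csf1 at 0.809 ± 0.0965. Csf3, at 0.0322 ± 0.0279, and Csf2, at 0, came last. In WT PBS the libraries of Csf2rb2 and Csf2ra overlapped, as did those of Csf2rb and Csf3r, so neither pair is ordered beyond its spread. Csf1 ranked 10249 of the tested genes in WT PBS and 8220 in WT ADP-Hep, where its level per kb was 2.51 ± 0.197. With ADP-Hep, Csf2rb in WT cells reached 54.4 ± 1.18 CPM per kb, which overlapped with Csf2ra at 54.0 ± 5.61, and Csf3r was at 18.3 ± 0.601, below both. In KO PBS the order was Csf1r (429), Csf2rb2 (51.4), Csf2ra (48.1), Csf3r (34.3), Csf2rb (32.9) and Csf1 (0.700), again with overlap between the 2nd and 3rd and between the 4th and 5th. In KO ADP-Hep the same 6 genes were at 445, 51.4, 42.6, 22.7, 34.8 and 0.479, and no neighbours in the order overlapped.

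**Figure D1:**
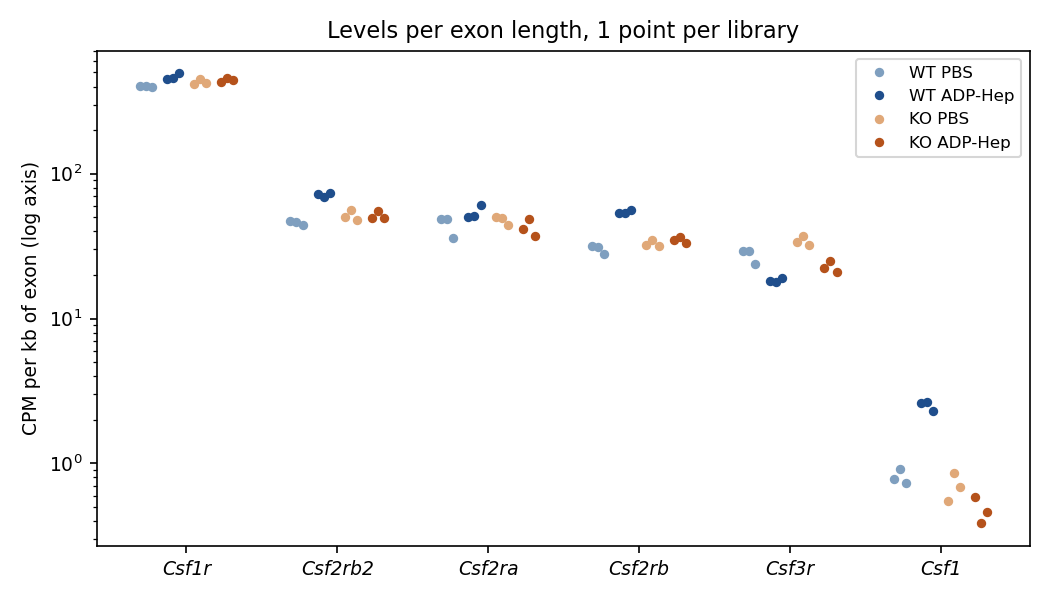
Level of the 6 tested genes in CPM per kb of exon (log axis), 1 point per library and 4 groups. Group means of Csf1r lie between 401 and 466, those of the other receptors between 18.3 and 71.6, and those of Csf1 between 0.479 and 2.51.

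ADP-Hep was compared with PBS within WT cells (WT response) and within KO cells (KO response), which asks what the agonist changes with and without its sensor. In WT cells 4 of the 6 tested genes rose, Csf1, Csf1r, Csf2rb and Csf2rb2, 1 fell, Csf3r, and Csf2ra missed the threshold. In that comparison 63.5% of all tested genes were called, 31.9% higher and 31.6% lower, so a call by itself was common. The libraries of all 6 did not overlap between PBS and ADP-Hep, which held for 65.9% of all genes. The median of the 6 log2 changes was 0.46, against -0.0058 over all genes tested. In KO cells 2 of the 6 fell, Csf1 and Csf3r, and 0 rose (28.9% of all genes called, 13.7% higher and 15.3% lower), with a median of -0.094 against 0.0052. Only Csf3r did not overlap between PBS and ADP-Hep in KO cells, among these 6, against 42.1% of all genes.

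**Figure D2:**
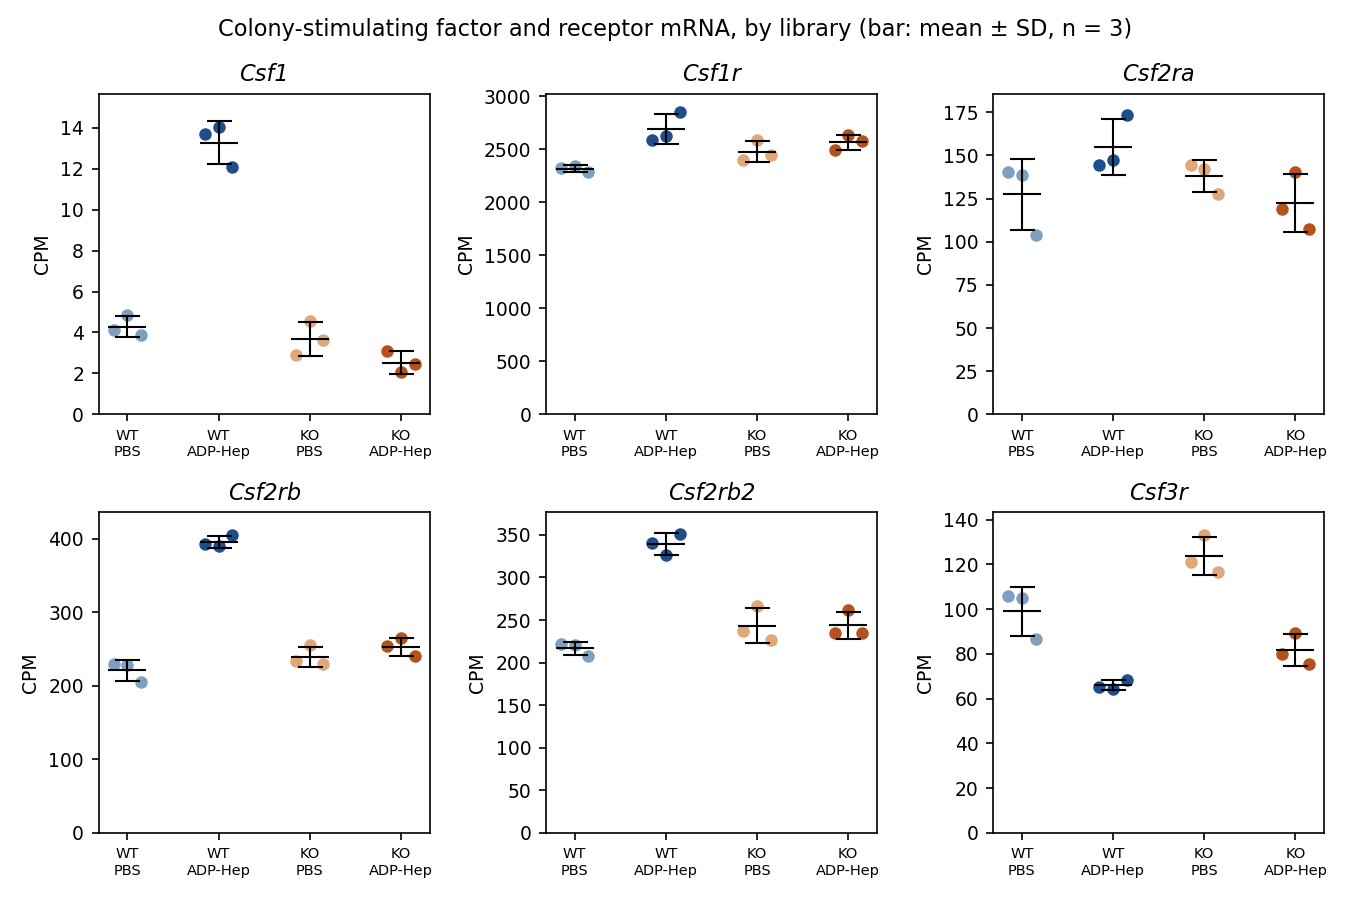
CPM of each of the 6 tested genes in every library (points) with mean ± SD (bars, n = 3) by group. WT ADP-Hep libraries stand above the other 3 groups for Csf1, Csf2rb and Csf2rb2, and ADP-Hep libraries of both genotypes stand below their PBS libraries for Csf3r.

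Csf1 rose in WT cells with ADP-Hep and did not rise in KO cells. It lies on chromosome 3 (mm10, 107741048 to 107760469, minus strand), and no other annotated gene shares its exons. Its level was 4.10, 4.84 and 3.87 CPM in WT PBS and rose to 13.7, 14.0 and 12.1 CPM in WT ADP-Hep. Every WT ADP-Hep library was above every PBS library, and the reads behind the 2 groups numbered 791 and 222. The change was 1.67 ± 0.13 on the log2 scale, 3.18-fold (95% interval 1.39 to 1.94, adjusted p = 4.4e-11), higher than that of 96.7% of genes tested. In KO cells Csf1 had 2.91, 4.56 and 3.63 CPM with PBS and 3.11, 2.04 and 2.44 with ADP-Hep, and the groups overlapped. The KO change was -0.52 ± 0.19 (95% interval -0.90 to -0.14, adjusted p = 0.037), from 160 and 149 reads. That call was lost in 10 of 25 alternatives: the log2 change was -0.31 without KO PBS replicate 2, -0.54 without KO PBS replicate 3, -0.42 without KO ADP-Hep replicate 3 and -0.47 without the unnumbered KO ADP-Hep library, each above the threshold (adjusted p = 0.29, 0.066, 0.11 and 0.12). The difference between the responses (WT minus KO) was 2.19 ± 0.23 (95% interval 1.71 to 2.66, adjusted p = 1.7e-08). Under ADP-Hep, KO minus WT was -2.35 ± 0.14 for Csf1 (adjusted p = 1.9e-13), whereas under PBS the difference was -0.17 ± 0.17 (95% interval -0.52 to 0.19, adjusted p = 0.60). This last value was -0.02 without KO PBS replicate 1, -0.37 without KO PBS replicate 2 and -0.08 without WT PBS replicate 2, none of them called.

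Csf2 and Csf3, the genes of GM-CSF and G-CSF, were at or near 0 reads in every group. Csf2 (chromosome 11, 54247271 to 54249667, minus strand) had 1 read in all, in WT ADP-Hep replicate 2, and 0 in the other 11 libraries. A count of 0 allows up to 0.122 to 0.259 CPM, depending on the library. Its antisense neighbour Gm12223 shares 12% of its exon bases. Csf3 (chromosome 11, 98701263 to 98703629, plus strand) had 13 reads in 7 libraries: 1, 1 and 0 in WT PBS, 2, 3 and 3 in WT ADP-Hep, 0, 0 and 0 in KO PBS, and 2, 0 and 1 in KO ADP-Hep. The WT groups held 8 reads against 2, a ratio of 3.62 after scaling with a 95% counting interval of 0.72 to 35, so no change was detectable at this depth. With no filter on low counts, neither gene passed the threshold in WT cells (22476 genes, adjusted p = 0.52 for Csf2 and 0.30 for Csf3) or in KO cells (1 and 0.37). Il3, which lies 15635 bases from Csf2 and also encodes a cytokine, had 0 reads in all 12 libraries. Il34, the 2nd ligand of CSF1R, had 5 reads, 4 in WT ADP-Hep replicate 2 and 1 in replicate 3.

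Csf1r, the CSF1 receptor, changed least among the genes that were called in WT cells. The gene is on chromosome 18, and 15.1% of its exon bases are shared with Hmgxb3 on the other strand, which had 30.0, 32.3, 32.0 and 22.9 CPM in WT PBS, WT ADP-Hep, KO PBS and KO ADP-Hep. Csf1r had 2326, 2346 and 2281 CPM in WT PBS and 2587, 2625 and 2852 in WT ADP-Hep. The groups did not overlap, and WT ADP-Hep replicate 3 was highest. The WT change was 0.21 ± 0.05, 1.16-fold (95% interval 0.12 to 0.31, adjusted p = 0.00025). In KO cells it had 2401, 2585 and 2445 CPM with PBS and 2492, 2633 and 2575 with ADP-Hep, a change of 0.05 ± 0.05 (95% interval -0.04 to 0.15, adjusted p = 0.44), and the groups overlapped. The difference between the responses was 0.16 ± 0.07 (adjusted p = 0.041), a call that held in 9 of 24 alternatives. Scaling by library totals alone, which shifts the median of all genes by -0.12 in the WT response and by -0.16 in the difference, gave 0.10 for the WT change and 0.0066 for the difference, the latter with an adjusted p of 0.94. KO and WT cells differed by 0.10 ± 0.05 under PBS and by -0.07 ± 0.05 under ADP-Hep, neither past the threshold (adjusted p = 0.19 and 0.21), and the sign of the second turned to 0.09 under library totals.

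The common beta chain gene and its near copy rose with ADP-Hep in WT cells, and the GM-CSF alpha chain gene was not called. Csf2rb, the common beta chain (chromosome 15, 78325752 to 78353847, plus strand), had 230, 229 and 204 CPM in WT PBS and 392, 390 and 406 in WT ADP-Hep. The change was 0.84 ± 0.05, 1.79-fold (95% interval 0.73 to 0.95, adjusted p = 2.8e-13). In KO cells it had 234, 255 and 229 CPM with PBS and 254, 265 and 240 with ADP-Hep, and these overlapped. The KO change was 0.08 ± 0.05 (95% interval -0.03 to 0.19, adjusted p = 0.28), and the difference between the responses was 0.76 ± 0.07 (adjusted p = 3.8e-09). Under ADP-Hep KO minus WT was -0.65 ± 0.05 (adjusted p = 4.9e-11).

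Csf2rb2, its near copy (chromosome 15, 78282507 to 78305721, minus strand, 20030 bases from Csf2rb), rose as well. It had 222, 221 and 208 CPM in WT PBS and 341, 326 and 351 in WT ADP-Hep, and the groups were separate. The change was 0.65 ± 0.06, 1.56-fold (95% interval 0.53 to 0.76, adjusted p = 2.8e-10). KO libraries had 237, 266 and 227 CPM with PBS and 235, 262 and 234 with ADP-Hep, a change of -0.0028 ± 0.06 (95% interval -0.12 to 0.11, adjusted p = 0.98). The difference between the responses was 0.65 ± 0.08 (adjusted p = 2.4e-07), and under ADP-Hep KO minus WT was -0.48 ± 0.06 (adjusted p = 5.0e-08). The 2 genes share 17.1% of the 50-base words of Csf2rb transcripts and 18.8% of those of Csf2rb2, so the split of reads between them is uncertain. With their reads summed, the WT change was 0.75 ± 0.05 (adjusted p = 3.5e-12), the KO change 0.04 ± 0.05 (0.62) and the difference 0.71 ± 0.07 (1.5e-08).

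Csf2ra, the GM-CSF-specific alpha chain (chromosome 19, 61223957 to 61228429, minus strand), did not pass the threshold in any of the 5 comparisons. It had 140, 139 and 104 CPM in WT PBS and 144, 147 and 174 in WT ADP-Hep, so replicate 3 was the outlying library in both groups, low in one and high in the other. The WT change was 0.28 ± 0.14 (95% interval -0.03 to 0.60, adjusted p = 0.11), 0.15 without WT PBS replicate 3, 0.36 without WT PBS replicate 1, 0.20 without WT ADP-Hep replicate 3 and 0.17 under library totals. It was called by limma-voom (adjusted p = 0.016) and by the fit with no robust estimation (0.018). KO libraries had 145, 142 and 128 CPM with PBS and 119, 141 and 107 with ADP-Hep, a change of -0.18 ± 0.14 (95% interval -0.50 to 0.13, adjusted p = 0.38). That change was -0.10 without the unnumbered KO ADP-Hep library and -0.29 without KO ADP-Hep replicate 3. The difference between the responses was 0.47 ± 0.20 (95% interval 0.02 to 0.92, adjusted p = 0.080), and DESeq2, limma-voom, the fit with no robust estimation and the fit without KO ADP-Hep replicate 3 each called it (0.046, 0.0084, 0.0100 and 0.034). KO against WT under ADP-Hep was -0.34 ± 0.14 with no overlap between the groups (adjusted p = 0.055), and 8 of 25 alternatives called it. Il3ra, the alpha chain that pairs with the beta chains for IL-3, had 18.5, 17.5, 22.3 and 21.4 CPM in the 4 groups and changed by -0.10 in WT and -0.08 in KO cells (adjusted p = 0.46 and 0.63).

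Csf3r, the G-CSF receptor, fell with ADP-Hep in both WT and KO cells. The gene is on chromosome 4 (126024550 to 126044440, plus strand). It had 106, 105 and 86.5 CPM in WT PBS and 65.3, 64.2 and 68.4 in WT ADP-Hep, and 121, 133 and 117 in KO PBS and 80.2, 89.6 and 75.6 in KO ADP-Hep. Each PBS library was above each ADP-Hep library of its genotype. The WT change was -0.58 ± 0.08, 0.667 of the PBS level (95% interval -0.74 to -0.43, adjusted p = 1.5e-06). The KO change was -0.61 ± 0.07, 0.657 of the PBS level (95% interval -0.76 to -0.45, adjusted p = 4.7e-06), and it lay among the lowest 4.62% of changes in KO cells. The difference between the responses was 0.02 ± 0.11 with a 95% interval of -0.20 to 0.24 (adjusted p = 0.89), and its sign turned in 7 alternatives. The interval leaves room for a larger fall in either genotype.

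Csf3r was also the gene of the 6 that differed between genotypes under PBS, where KO cells were higher by 0.33 ± 0.07, 1.25-fold (95% interval 0.17 to 0.48, adjusted p = 0.0066). In that comparison 11.4% of all genes were called, and 1 of the 6 was. The value was 0.23 without WT PBS replicate 3 (adjusted p = 0.016). Under ADP-Hep the KO level was higher by 0.31 ± 0.08, 1.24-fold (adjusted p = 0.0017). Neutrophil markers, from cells in which CSF3R is abundant, are given beside these values. The 12 of them summed to 219 to 261 CPM in WT PBS, 234 to 257 in WT ADP-Hep, 227 to 249 in KO PBS and 181 to 202 in KO ADP-Hep. Of the 9 tested, 3 rose and 1 fell in WT cells, 0 rose and 4 fell in KO cells, and 8 were lower in KO than in WT cells under ADP-Hep, where Csf3r was higher. Over all genes tested, 31.9% rose and 31.6% fell in WT cells, 13.7% rose and 15.3% fell in KO cells, and 32.0% were lower in KO cells under ADP-Hep. Within the list, Ly6g, Retnlg and Cxcr2 had 17, 40 and 64 reads over all 12 libraries. Nearly all reads of the summed level thus came from the other markers. The part of neutrophils in the Csf3r values was not tested.

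**Figure D3:**
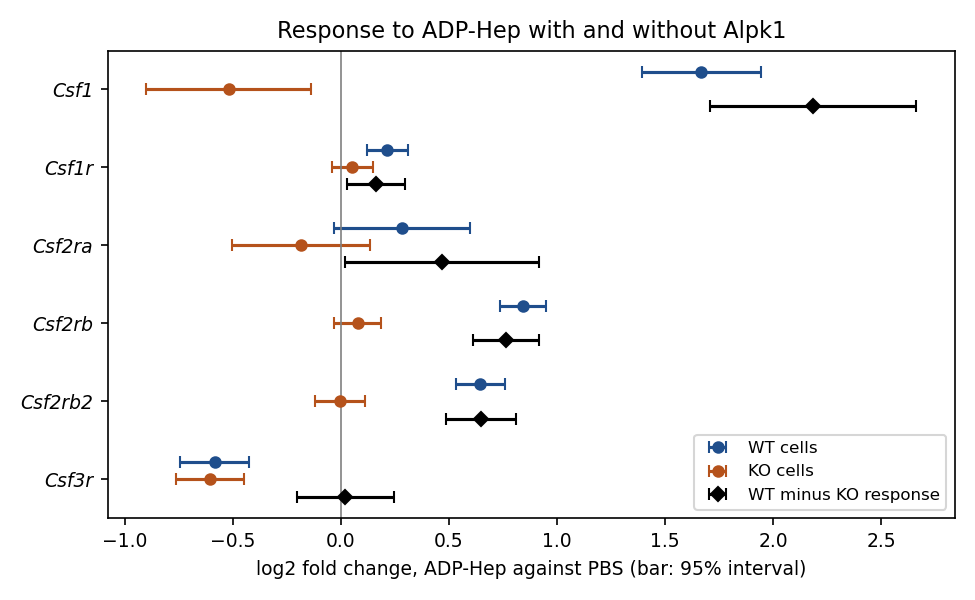
Log2 fold change of ADP-Hep against PBS for each of the 6 tested genes in WT and KO cells, with 95% intervals. WT and KO intervals are separate for Csf1, Csf2rb and Csf2rb2 and nearly coincide for Csf3r.

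The 2 genotypes were compared directly as well. Under PBS 1 of the 6 genes was called higher in KO cells and 0 lower (5.57% of all genes higher, 5.82% lower), and 3 of the 6 did not overlap, against 27.7% of all genes. Csf2rb2 was at 0.17 ± 0.06 there and was not called (adjusted p = 0.053, and called in 6 alternatives), and Csf2rb at 0.12 ± 0.05 (0.16). Under ADP-Hep 3 of the 6 were lower in KO cells, Csf1, Csf2rb and Csf2rb2, and 1 was higher, Csf3r (64.8% of all genes called, 32.8% higher and 32.0% lower). The libraries of 5 of the 6 did not overlap, against 68.6% of all genes. For the difference between the responses, 4 of the 6 were called, all with the larger value in WT cells (49.5% of all genes called, 24.6% in that direction and 24.9% in the other). The comparisons share libraries, since each group of 3 enters more than 1 of them.

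Ratios of reads within a library compare 2 genes without any scaling between libraries. They were chosen after the counts had been seen, 12 comparisons were made, and with 3 libraries against 3 an exact two-sided permutation test cannot go below 0.1. Adjusted over the 12, each p of 0.1 below became 0.15. Csf2rb reads per Csf2rb2 read were 1.02 ± 0.0309 (SD, n = 3) in WT PBS and 1.17 ± 0.0237 in WT ADP-Hep, with separate ranges (0.982 to 1.04 and 1.15 to 1.19; exact p = 0.1). In KO cells they went from 0.984 ± 0.0257 to 1.04 ± 0.0359, also with separate ranges (exact p = 0.1). In each genotype all 3 ADP-Hep libraries had a higher ratio than all 3 PBS libraries. Csf2ra reads per Csf2rb read went from 0.575 ± 0.0585 to 0.391 ± 0.0322 in WT and from 0.578 ± 0.0356 to 0.482 ± 0.0430 in KO cells (exact p = 0.1 in each). Csf3r reads per Csf1r read went from 0.0427 ± 0.00419 to 0.0246 ± 0.000645 in WT and from 0.0499 ± 0.00198 to 0.0318 ± 0.00234 in KO cells (exact p = 0.1 in each). Csf1 reads per Csf1r read went from 0.00184 to 0.00496 in WT cells (exact p = 0.1) and from 0.00149 to 0.000990 in KO cells (exact p = 0.2). These ratios are of reads, not of transcripts, and serve to compare groups, not genes.

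**Figure D4:**
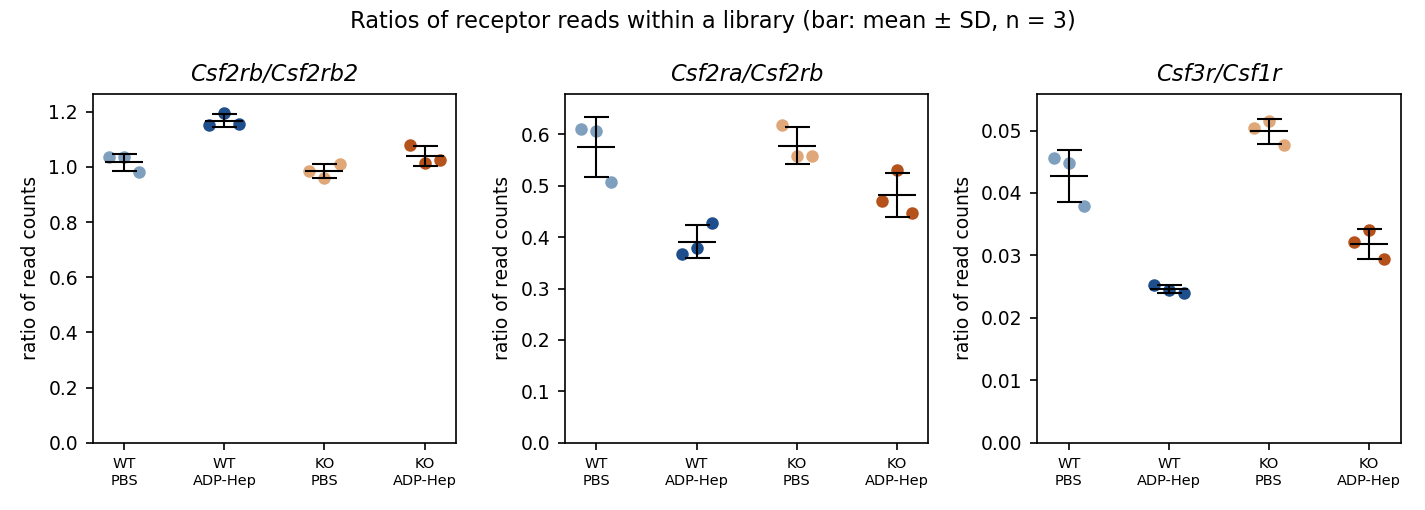
Ratio of read counts of 2 receptor genes within each library (points) with mean ± SD (bars, n = 3) by group. Csf2rb per Csf2rb2 is highest in WT ADP-Hep (1.15 to 1.19), and Csf2ra per Csf2rb and Csf3r per Csf1r are lower with ADP-Hep than with PBS in both genotypes.

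The genes whose profiles lay nearest to each receptor or ligand were found by the root-mean-square difference of centred log2 CPM over the 12 libraries, among 9282 genes. For Csf1 they were Clmp (0.172), Sh3bp4 (0.202) and Cebpb (0.203). Cebpb, a C/EBP transcription factor gene, changed by 1.56 in WT and -0.38 in KO cells. For Csf2rb they were St3gal5 (0.0613), Rhog (0.0626) and Il2rg (0.0650), and for Csf2rb2 Fcf1 (0.0664), Tapbp (0.0669) and Rac2 (0.0718). Il2rg encodes the common gamma chain of another cytokine receptor family and changed by 0.95 in WT and 0.01 in KO cells. For Csf1r they were Ptgr1 (0.0362), Fermt3 (0.0389) and Tcf25 (0.0394), and for Csf2ra they included Ppp1r18 (0.0797) and Pfn1 (0.0821). For Csf3r they were Npc1 (0.0914), Slc6a6 (0.0918) and Hipk2 (0.0959), which changed by -0.62, -0.74 and -0.51 in WT and by -0.51, -0.49 and -0.60 in KO cells.

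Genes around these receptors were read from lists, each with its count of calls and its median beside that of all genes (WT -0.0058, KO 0.0052). The counts of every list stand against 31.9% of all genes called higher and 31.6% lower in WT cells, and 13.7% higher and 15.3% lower in KO cells. Of 16 genes of signalling below the common beta chain and the G-CSF receptor, 10 rose and 2 fell in WT cells (median 0.31), and 2 rose and 3 fell in KO cells (median -0.05). Socs3, the feedback inhibitor that binds the G-CSF receptor, rose by 5.32 ± 0.11, from 3.34 to 133 CPM (adjusted p = 1.2e-19). Socs1, a related inhibitor, rose by 3.63 ± 0.18, Jak2, the kinase bound to the beta chain, by 1.57 ± 0.05 and Pim1, a STAT5 target gene, by 1.00 ± 0.07. In KO cells Pim1 fell by 1.38 ± 0.09 and Mcl1, a survival gene, by 0.41 ± 0.04.

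Of 23 tested genes of CSF1R signalling, 10 rose and 6 fell in WT cells (median 0.02), and 5 rose and 8 fell in KO cells (median -0.07). Among the called genes with the smallest p were the Src-family kinases Lyn (1.22 ± 0.05), Src (2.94 ± 0.13) and Fgr (2.11 ± 0.10). The list median was nonetheless near that of all genes. In KO cells Gab2, a docking protein, changed by -0.57 ± 0.05 and Pik3cb, a PI3-kinase subunit, by -0.58 ± 0.06. Of 10 growth genes downstream of CSF1, 5 rose and 3 fell in WT (median 0.68) and 3 rose and 3 fell in KO cells (median 0.08). Fos (2.82 ± 0.07), Junb (1.95 ± 0.05), Myc (2.00 ± 0.10) and Spred1, an inhibitor of ERK signalling (1.90 ± 0.05), had the smallest p in WT cells. In KO cells the immediate-early gene Egr1 fell by 0.93 ± 0.20 and Cdk4 by 0.32 ± 0.05.

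Of 12 transcription factor genes of the macrophage program, 6 rose and 6 fell in WT (median -0.06), and 2 rose and 6 fell in KO cells (median -0.19). Spi1, which encodes PU.1, rose from 263 to 548 CPM (1.06 ± 0.05), Cebpb by 1.56 ± 0.06, Cebpd by 2.46 ± 0.07 and Ets2 by 3.08 ± 0.08. In KO cells Runx1 fell by 0.54 ± 0.05 and Mitf by 0.40 ± 0.05. Of 10 genes whose products bind or cut cytokine mRNA, 6 rose and 3 fell in WT (median 0.28), and 0 rose and 4 fell in KO cells (median -0.10). Zfp36, which encodes a protein that destabilises Csf2 mRNA, rose by 1.14 ± 0.06 and its relative Zfp36l2 fell by 1.28 ± 0.04, and Elavl1, which encodes a stabilising protein, rose by 0.46 ± 0.05 and Hnrnpd by 0.36 ± 0.05. In KO cells Rc3h1 fell by 0.25 ± 0.06 and Khsrp by 0.17 ± 0.05.

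Ligands and receptors of related families were mostly under the filter: 5 of 14 in the table were tested, of 15 listed. In WT cells 1 rose and 3 fell (median -0.37), and in KO cells 0 rose and 1 fell (median -0.08). Il7 rose by 3.37 ± 0.47 in WT cells (adjusted p = 7.4e-07), from 0.10 to 1.21 CPM. It had only 96 reads over all libraries, with 0.08 CPM in KO PBS and 0.22 in KO ADP-Hep. Its difference between the responses was not called (2.15 ± 1.08, adjusted p = 0.10). In WT cells Kitl, the ligand of KIT, fell by 0.85 ± 0.12, Osm by 0.37 ± 0.13 and Kit, with 110 reads in all, by 0.98 ± 0.41. Kit fell by 1.94 ± 0.45 in KO cells (adjusted p = 0.0017).

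**Figure D5:**
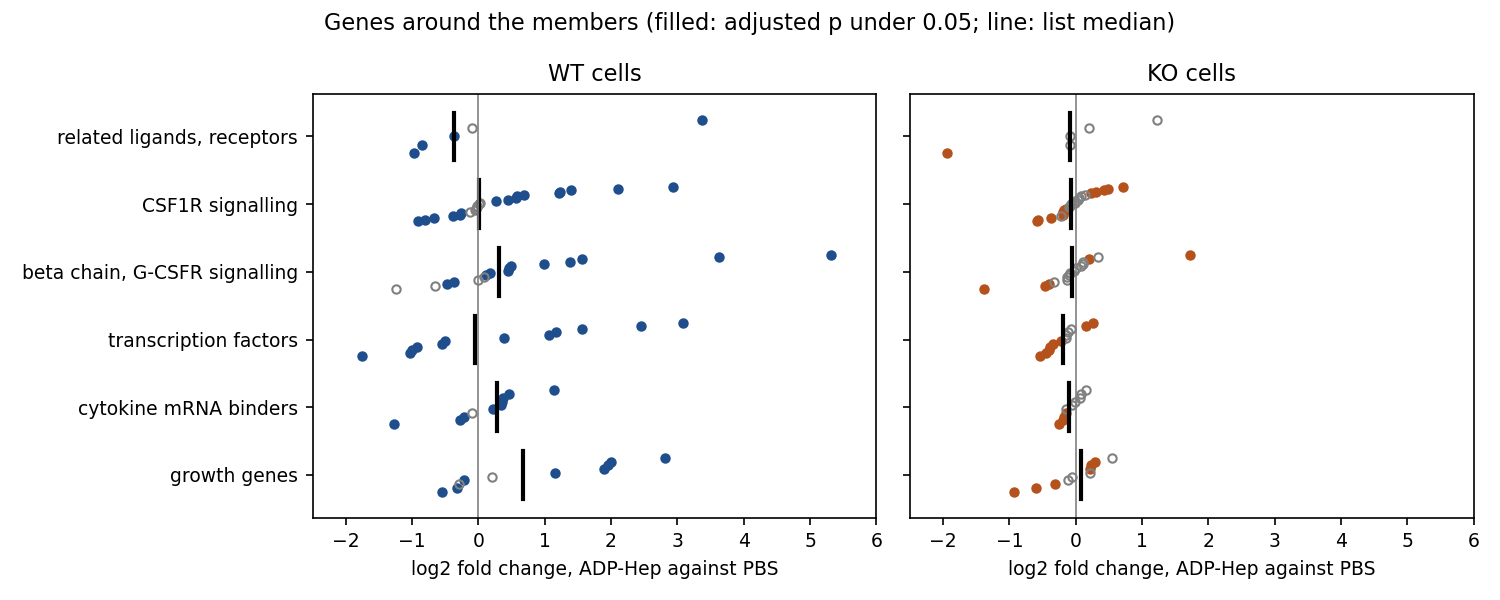
Log2 fold change of ADP-Hep against PBS for the genes of each list around the receptors, in WT (left) and KO cells (right); filled points passed an adjusted p under 0.05 and the line is the list median. In WT cells medians run from -0.37 (related families) to 0.68 (growth genes), and in KO cells from -0.19 to 0.08.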

How the data were processed

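Members and gene lists were chosen with earlier results of these data known. RNA of 12 BMDM libraries was measured. The authors deposited raw counts, whole numbers of reads for each gene, in one table. A stranded mRNA kit was used, per the labels' protocols. The submitters' processing notes name STAR, featureCounts, RSEM, DESeq2, FastQC and Trim Galore and the builds mm10 and hg38. Their roles, versions, annotation and treatment of strand: not given in the sources used here. Overlapping, antisense and near-identical genes may therefore share or lose reads.

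Columns were assigned to groups by name. One KO ADP-Hep column carries the number 13, which no label has, and stayed in its group as an unnumbered library. Below row 37642 the KO values sit 1 row under their identifiers: log2 means of WT and KO libraries correlated at 0.996 in the 37542 rows used, at 0.042 below the break, and at 0.979 there after the KO columns were moved up. The other 19206 rows were not used, a choice made after the counts were seen. The lowest-lying of the 8 members is at row 19902.

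After TMM scaling and the filterByExpr filter, edgeR 4.0.16 fitted 1 robust quasi-likelihood model to all 12 libraries in R 4.3.3 (limma 3.58.1). P-values were adjusted by Benjamini-Hochberg over the 12261 genes tested, and a gene was called at an adjusted p under 0.05. CPM are counts divided by the TMM-scaled library size. Each SE is the absolute log2 change over the square root of F, and 95% intervals use the t distribution with the model's degrees of freedom. The biological coefficient of variation was 4.81%. The model was also run on simulated counts with this same spread for every gene, which does not measure its error rate in these data. Counting intervals and the floor of 3 counts cover counting error only. Chi-square per degree of freedom between replicates ran from 1.93 to 10.1, so no pair matched within sampling noise. Positions and exon lengths are from GENCODE M21 on mm10, and upstream sequences from RefSeq on GRCm38.p6.

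By rule the text names all members, Alpk1, from each list up to 4 called genes with the smallest p in WT and up to 2 in KO cells, and for each member the 3 tested genes of at least 5 CPM with the nearest profile, predicted (Gm) and Rik names left out. Some genes that this rule or the lists name are not reported here. Alternatives were DESeq2 size factors, library totals, DESeq2 1.42.0's Wald test, limma-voom, 2 other filters, no robust estimation, glmTreat against 1.5-fold, a replicate block, only the groups compared, other treatments of the rows, and each library left out in turn. Summing Csf2rb and Csf2rb2, and a fit of the numbered libraries without a block, were added after the data were seen. The latter is the same fit as leaving out the unnumbered library, so its result enters every count of alternatives under both names. Figures were drawn with matplotlib 3.10.9 in Python 3.11.15.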

Additional observations from a re-analysis of the deposited data

Results flagged for a closer look

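In 4 genes the response to ADP-Hep differed between WT and KO cells by the edgeR test of that difference (WT log2 change minus KO log2 change), which called 49.5% of all genes tested. Csf1, which encodes the ligand of CSF1R, had the largest value among the 6 tested, 2.19, with 3 of 3 WT ADP-Hep libraries above all others. The beta chain gene Csf2rb had 0.76 and its near copy Csf2rb2 0.65, and in both the 3 WT ADP-Hep libraries lay above the 9 others. Csf1r had 0.16, and this call held in 9 of 24 alternatives. For Csf2ra (0.47) and Csf3r (0.02) the difference did not pass the threshold.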

How the results depend on the processing

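Of 30 values of single genes in 754 alternative settings, 700 kept their side of the threshold, 34 lost the call and 20 gained it. The sign turned in 19 settings, all of values that were not called: 10 of the Csf2rb2 KO response, 7 of the Csf3r difference, 1 of Csf1r for KO against WT under ADP-Hep and 1 of Csf2ra under PBS. Tested against a 1.5-fold change (glmTreat), genes called were 2138 in the WT response, 167 in the KO response, 1526 for the difference, 31 for KO against WT under PBS and 2204 under ADP-Hep, and of the 6 genes followed here 2, 0, 2, 0 and 1. In the KO response 1 of the 6 was called, in place of 2, with library totals, DESeq2's Wald test, limma-voom, the replicate block and the numbered libraries without a block, and 1 to 2 when each library was left out in turn. Under PBS, KO against WT, 2 of the 6 were called, in place of 1, with no filter, with the 1 CPM filter and with all rows as deposited, which called 3150 genes in place of 1397. Leaving out each library gave 1 to 2 of the 6 and 829 to 1565 genes. The lowest was without KO PBS replicate 1. Library totals called 2990 genes higher and 4927 lower in the WT response (3914 and 3871 with TMM) and 2360 and 1483 in the KO response. They called 2020 and 4507 for the difference and 5609 and 2722 for KO against WT under ADP-Hep. In that last comparison the median of all genes was 0.17 with library totals and 0.014 with TMM.

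Deviations of same-numbered libraries from their group means correlated weakly (15 pairs, r from -0.37 to 0.22, 4 over 0.1), as did those of other pairs (30 pairs, 7 over 0.1). With 3 libraries per group, these values cannot settle whether a number marks a shared culture or batch. With the replicate block, which leaves out the unnumbered library, Csf1 in KO cells was at -0.39 (adjusted p = 0.19) and the Csf1r difference at 0.16 (0.096), both not called, and genes called were 7697 in the WT and 2583 in the KO response. The same libraries without a block gave -0.47 (adjusted p = 0.12) and 0.16 (0.070), also both not called. That fit called 7747 genes in the WT and 2757 in the KO response. Csf2 and Csf3, with 1 and 13 reads in all, are limited by depth.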
